A study of Rattus norvegicus with 6 samples.

Results

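Intermediate filament genes were followed in cultured rat heart muscle cells treated with all-trans retinoic acid (ATRA), the active vitamin A metabolite that switches on nuclear retinoic acid receptors. The genes were chosen by symbol: the keratins Krt7, Krt8, Krt18 and Krt19, the muscle filament gene Des, the mesenchymal filament gene Vim, their partners Nes and Synm, and the nuclear lamins Lmna and Lmnb1. Of these 10 symbols, 9 were found among the 23096 protein-coding genes of the table, and Krt19 was not analysed here. Poly(A) RNA came from ventricular cardiomyocytes of E18.5 Wistar rat embryos, enriched by pre-plating to remove fibroblasts and grown on laminin in medium with 7% serum for 24 h before treatment. The 3 vehicle libraries received the solvent DMSO and the 3 ATRA libraries 10 µM ATRA, both for 48 h. Whether replicates were separate isolations or pooled litters is not stated, so p-values cover the spread among these samples alone, and that spread may be technical.

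Intermediate filaments are rope-like polymers that give cells and nuclei mechanical strength. Keratins assemble only as pairs of a type I and a type II chain, and Krt18 (type I) and Krt8 (type II) are the typical pair of simple epithelia and of the early embryo. Desmin ties the Z-discs of muscle to each other, to desmosomes and to mitochondria, whereas vimentin is the filament of mesenchymal cells and nestin, which cannot polymerise alone, co-assembles with it. Lamins line the inner face of the nuclear envelope.

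The libraries held 25434878 to 32052035 reads assigned to genes. Markers of cardiomyocytes were the most abundant marker list, with a summed level of 7404 to 9856 FPKM (a level scaled for gene length and library size) in vehicle and 12910 to 13060 FPKM after ATRA, and 10 of 10 were tested. The culture also carried fibroblast transcripts, with 11 of 12 markers tested and a summed level of 812.6 to 1813 FPKM in vehicle and 776.7 to 821.1 FPKM after ATRA. In bulk RNA, fewer cells of a type and less RNA per cell cannot be told apart. The vehicle libraries differed more among themselves than the ATRA libraries did: the median coefficient of variation over the 13110 genes tested was 9.92% in vehicle and 4.72% after ATRA. Replicates 1 and 3 lay at opposite ends of the vehicle group in both sums. From replicate 1 to 3 the cardiomyocyte sum was 7404, 9127 and 9856 FPKM, and the fibroblast sum 1813, 1391 and 812.6 FPKM. Vehicle replicate 3 had 10 of 11 tested fibroblast markers below the mean of the other vehicle libraries (median log2 difference -1.16).

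Because the genes were proposed with results of this same contrast known, their differences between the groups are given as a description, with no p-value. By limma over all genes (adjusted p under 0.05), 2 of the 9 were called higher (Krt7 and Krt18), 3 lower (Vim, Nes and Lmna) and 4 were not called (Krt8, Des, Synm and Lmnb1). Over all genes tested, 39.3% were called, 20.3% higher and 18.9% lower, and nothing is read from the members' count against these shares. The groups did not overlap for the 5 called genes, as for 53.8% of all genes tested (27.6% higher and 26.2% lower after ATRA). All 9 passed the filter on low values, and none depended on the group in which it was higher to do so, since each had a normalised count of at least 10 in all 6 libraries. Without vehicle replicate 3, Krt8 was also called lower, giving 4 lower genes, where 26.3% of the genes tested were then higher and 23.7% lower.

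**Figure D1:**
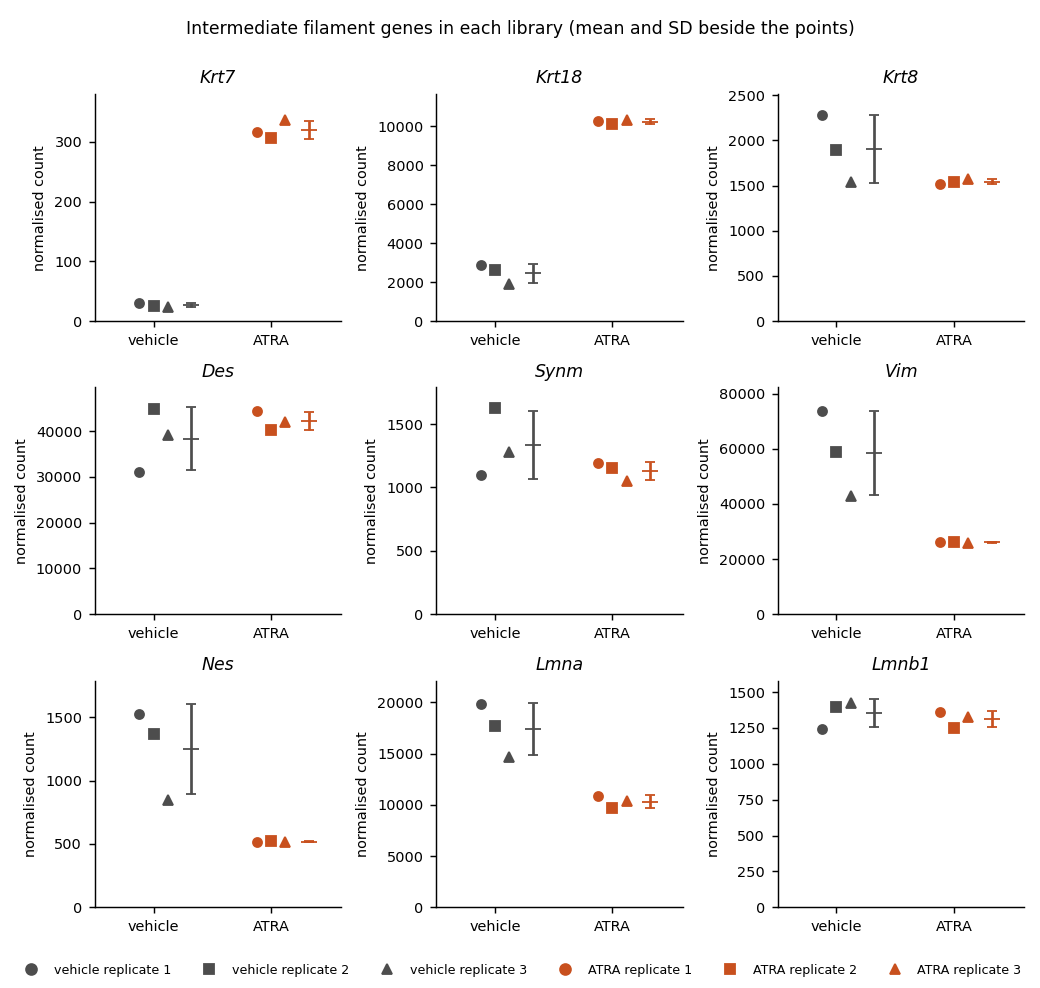
Normalised counts (linear axis from 0) of the 9 intermediate filament genes in the 3 vehicle libraries (grey) and the 3 ATRA libraries (orange), with a symbol for each replicate and the mean and SD beside the points. Krt7 and Krt18 lie higher in every ATRA library, Vim, Nes and Lmna lower, and the remaining 4 genes overlap.

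The keratins of one filament pair parted. Krt18 (ENSRNOG00000047393), the type I chain, had 2864, 2607 and 1921 normalised counts in vehicle replicates 1 to 3 and 10287, 10112 and 10325 after ATRA. Every ATRA library lay above every vehicle library, and the means differed 4.16-fold (log2 fold change 2.08 ± 0.13, SE, n = 3 per group). Krt8 (ENSRNOG00000009779), its type II partner, had 2287, 1889 and 1536 normalised counts in vehicle and 1519, 1545 and 1570 after ATRA. The lowest vehicle library, replicate 3, lay within the ATRA range, and the difference was not called (-0.28 ± 0.13). It was called without vehicle replicate 3 (-0.43) and with libraries scaled by total reads alone (-0.39), in both cases as lower. Without vehicle replicate 1 the difference was -0.14 and not called.

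The ratio of Krt18 to Krt8, on the per-length FPKM scale, was 2, 2.2 and 2 in the vehicle libraries, although both transcripts varied there by about the same coefficient of variation, 19.8%. After ATRA the ratio was 10.8, 10.4 and 10.5. The mean ratio was thus 2.07 ± 0.118 in vehicle and 10.6 ± 0.197 after ATRA (SD, n = 3). In vehicle, then, both chains moved together from library to library, and after ATRA the type I transcript stood in a larger excess.

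Krt7 (ENSRNOG00000008057), a type II keratin of ductal and mesothelial linings, was rare in vehicle. It had 31, 25.2 and 23.9 normalised counts there, from 32, 29 and 22 reads, and 316, 306 and 336 after ATRA. The groups were far apart, with a 12-fold difference of means (3.54 ± 0.15), and Krt7 ranked 32 from the top among the 13110 genes by log2 fold change, with Krt18 at rank 121. Per length it was the smaller part of Krt7 plus Krt8: 1.72%, 1.69% and 1.97% in vehicle and 21.2%, 20.4% and 21.7% after ATRA. Krt7 plus Krt8 over Krt18 was 0.494 ± 0.0279 in vehicle and 0.12 ± 0.00214 after ATRA (FPKM ratio, SD, n = 3). Other keratins, the type I Krt19 and the type II Krt80 among them, are not part of these proportions. Krt80 had means of 2.14 FPKM in vehicle and 5.36 FPKM after ATRA, and Krt7 0.536 and 6.42 FPKM.

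Krt8 and Krt18 are neighbours on chromosome 7, with no other protein-coding gene between them on the RefSeq map of the assembly GRCr8, and Krt7 lies on the same chromosome. Their promoters are shown because these neighbouring genes differed in their response. The bases are the 250 before the RefSeq start site, 5′ to 3′ on the strand of the gene, for Krt18 at chr7:135035918-135036167 (GRCr8, plus strand) and for Krt8 at chr7:135010340-135010589 (GRCr8, minus strand). Capitals mark AGGTCA, the core recognition letters of nuclear receptors, GGGCGG, the GC box, and TATAAA, the TATA box, on either strand.
Krt18: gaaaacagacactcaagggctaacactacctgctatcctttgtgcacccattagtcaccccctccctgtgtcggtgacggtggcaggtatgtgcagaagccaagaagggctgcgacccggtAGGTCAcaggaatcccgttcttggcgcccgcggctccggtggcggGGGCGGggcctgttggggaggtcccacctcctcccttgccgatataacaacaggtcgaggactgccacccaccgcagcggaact
Krt8: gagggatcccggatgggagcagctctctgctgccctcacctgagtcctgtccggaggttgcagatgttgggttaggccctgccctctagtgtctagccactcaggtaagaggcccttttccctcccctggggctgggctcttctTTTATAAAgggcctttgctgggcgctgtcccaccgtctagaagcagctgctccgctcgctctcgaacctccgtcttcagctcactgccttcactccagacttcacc

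The Krt18 promoter held AGGTCA at positions -129 to -124 from the start site and a GC box at -84 to -79, with no TATAAA. The Krt8 promoter held TATAAA at -104 to -99, overlapping a second match on the opposite strand, and neither AGGTCA nor a GC box. Windows of 300 bases, from 250 before to 50 after the start, were searched on both strands for 33469 RefSeq genes, among them 8 of the filament genes (Krt7 and Krt19 were not searched). AGGTCA was in 16.2% of all windows and in 1 of 8 (Krt18). GGGCGG was in 33.1% of all windows and in 6 of 8 (Nes, Lmna, Krt18, Des, Vim and Lmnb1), and TATAAA in 14.2% and in 2 of 8 (Krt8 and Vim). The AP-1 motif TGANTCA was in 7.33% and in 2 of 8 (Lmna and Krt8), and the E-box CANNTG in 72.1% and in 3 of 8 (Krt8, Des and Lmnb1). A direct repeat of AGGTCA with 5 bases between the copies occurred in 3 windows and with 2 bases in 4, none of them of a filament gene. These matches describe letters in the windows and say nothing about binding.

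Keratins are also made by the epithelial and mesothelial cells that a heart culture may carry, so their markers are given here. Of 9 mesothelial and epicardial markers tested, 5 were called lower by limma and 4 not called, against 18.9% of all genes tested called lower. The summed level of these markers was 31.5 to 47.7 FPKM in vehicle and 25.1 to 26.5 FPKM after ATRA. The most abundant, with their log2 fold changes, were Gpm6a (0.01 ± 0.05), Upk3b (-1.6 ± 0.33), Tbx18 (-0.32 ± 0.09) and Upk1b (-2.44 ± 0.27). Of 15 epithelial markers, 4 were tested, and the whole list summed to 1.61 to 2.37 FPKM in vehicle and 1.71 to 2.05 FPKM after ATRA, with Cldn7 at 0 reads in every library and the defining genes Epcam, Cdh1 and Grhl2 below the filter. Of the 4 tested, 1 was called higher, 1 lower and 2 not, against 20.3% higher and 18.9% lower over all genes tested. The higher one was Esrp2 (0.71 ± 0.16, limma adjusted p = 0.0098), with means of 0.461 FPKM in vehicle and 0.758 FPKM after ATRA. The lower one, Cldn3, passed the filter only through vehicle, where it was higher, so no test is given for it. Krt18 alone had a mean of 61.1 FPKM in vehicle and 254 FPKM after ATRA. Both sums thus lay below Krt18 in every library, and no ATRA library exceeded the vehicle range of either. Vehicle replicate 3, where 8 of 9 mesothelial markers were below the mean of the other vehicle libraries, also had the lowest Krt7, Krt8 and Krt18 of the vehicle group. The part of these cells in the keratin levels was not tested.

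Of 10 cardiomyocyte markers tested, 3 were called higher and 7 not called, against 20.3% of all genes called higher, with Myl2, the ventricular regulatory light chain, 2.08-fold higher (1.07 ± 0.14, adjusted p = 0.00077 by limma), and without vehicle replicate 3 all 10 were higher, against 26.3% of the genes then tested. Set against the summed cardiomyocyte markers, Krt18 was 9.6, 7.09 and 4.83 per 1000 in vehicle and 19.5, 19.4 and 19.8 per 1000 after ATRA (FPKM over FPKM). On the same scale Krt7 was 0.084, 0.0554 and 0.0488 in vehicle and 0.487, 0.475 and 0.523 after ATRA, and Krt8 was 4.8, 3.22 and 2.42 in vehicle and 1.81, 1.86 and 1.89 after ATRA. Both Krt18 and Krt7 therefore stood higher in every ATRA library also relative to these markers. Krt8, whose groups overlapped in normalised counts, was lower in every ATRA library on this scale. The marker sum itself was higher after ATRA (12910 to 13060 FPKM) than in vehicle (7404 to 9856 FPKM).

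**Figure D2:**
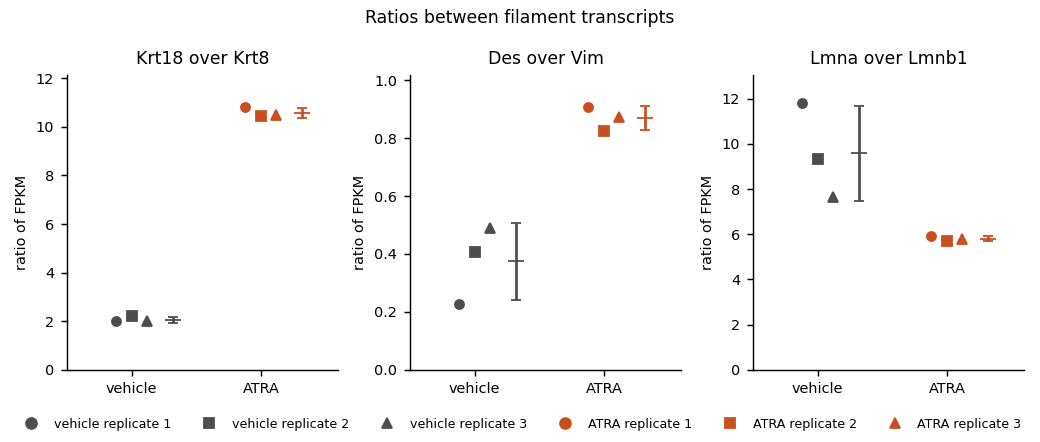
Ratios of FPKM values (linear axes from 0) between filament transcripts in each library, vehicle in grey and ATRA in orange, with the mean and SD beside the points. Krt18 over Krt8 is close to 2 in all vehicle libraries and above 10 in all ATRA libraries, Des over Vim is higher after ATRA, and Lmna over Lmnb1 is lower.

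Desmin is the filament of the contractile cells. Des (ENSRNOG00000019810) had 31193, 44772 and 39204 normalised counts in vehicle and 44360, 40339 and 42021 after ATRA. The ATRA values fell inside the vehicle range, and the difference was not called (0.15 ± 0.13). Per 1000 of the summed cardiomyocyte markers, Des was 43.9, 51.2 and 41.5 in vehicle and 35.4, 32.5 and 34 after ATRA (FPKM over FPKM). On that scale, whose marker sum was itself higher after ATRA, Des was lower in every ATRA library. Synm (ENSRNOG00000014030), which encodes synemin, a large filament protein that joins desmin or vimentin networks to the cytoskeleton at the membrane, had 1099, 1628 and 1281 normalised counts in vehicle and 1189, 1157 and 1050 after ATRA. It was not called (-0.22 ± 0.13), with overlapping groups, but was called lower without vehicle replicate 1 (-0.35). Des and Synm shared the order of the vehicle libraries, lowest in replicate 1 and highest in replicate 2, which no other cytoplasmic filament gene showed.

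The mesenchymal filament transcripts were lower after ATRA. Vim (ENSRNOG00000018087) had 73607, 58898 and 42974 normalised counts in vehicle and 26193, 26195 and 25822 after ATRA. The groups did not overlap, the lowest vehicle library being 64.1% above the highest ATRA library, and the means differed 2.24-fold (-1.13 ± 0.17). Nes (ENSRNOG00000018681), the gene of nestin, had 1527, 1369 and 850 normalised counts in vehicle and 511, 520 and 516 after ATRA, a 2.42-fold difference of means (-1.23 ± 0.19). Its lowest vehicle library was 63.6% above its highest ATRA library.

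Vim and Nes had the most similar profiles of any pair of the 9 genes, with a root mean square distance of 0.1 on the log2 scale over the 6 libraries, each profile taken relative to its vehicle mean. The next pair, Des and Lmnb1, was 0.17 apart, and Krt8 and Krt18 were 1.67 apart. Within vehicle, Vim and Nes also had the largest coefficients of variation of the 9 genes, 26.2% and 28.4%, and within ATRA the smallest, 0.825% and 0.8%.

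The spread of Vim and Nes in vehicle went with that of the fibroblast markers, of which Col1a1 and Col1a2, the chains of type I collagen, make up most of the sum (means of 782 and 405 FPKM in vehicle). The summed fibroblast level was 1813, 1391 and 812.6 FPKM in vehicle replicates 1 to 3 and 814.4, 776.7 and 821.1 FPKM after ATRA. Of the 11 markers tested 2 were called higher, 4 lower and 5 not, against 20.3% higher and 18.9% lower over all genes tested. Without vehicle replicate 3 there were 2 higher and 8 lower, against 26.3% and 23.7% of the genes then tested. Among the 4 lower, Thy1 had 31.9, 48.6 and 16.3 normalised counts in vehicle and 7.84, 11.1 and 8.67 after ATRA. Thy1 passed the filter on low values only through vehicle, where it was higher, and is also among the 8. Postn, the gene of the matrix protein periostin, was 12.3-fold lower after ATRA (-3.52 ± 0.29, limma adjusted p = 0.00011), and Col3a1, a fibrillar collagen chain, was not called (0.19 ± 0.28). Vehicle replicate 3 therefore had a fibroblast sum within the range of the ATRA libraries, while its Vim level was 836 FPKM against 502 to 510 FPKM after ATRA, and its Nes level 4.56 FPKM against 2.74 to 2.79 FPKM. This held for the sum and not for every single marker. In vehicle replicate 3 Postn was higher (25.9 FPKM against 3.61 to 4.23 after ATRA) and Col3a1 lower (46.8 FPKM against 85.2 to 95.9). Vim over the fibroblast sum was 0.79, 0.824 and 1.03 in vehicle and 0.626, 0.656 and 0.612 after ATRA, so the groups did not overlap on this scale either. Without vehicle replicate 3 the log2 fold change was -1.34 for Vim and -1.49 for Nes. Leaving out vehicle replicate 1 instead, it was -0.95 for Vim and -1.06 for Nes. Schwann and neural markers, which nestin can accompany, summed to 1.59 to 2.7 FPKM in vehicle and 0.907 to 1.24 FPKM after ATRA, with 2 of 6 tested. Endothelial markers, 6 of 8 tested, summed to 3.95 to 8.33 FPKM in vehicle and 7.42 to 7.98 FPKM after ATRA, a sum to which Kdr, a vascular growth factor receptor, gave a mean of 1.4 FPKM in vehicle and 5.1 FPKM after ATRA (1.87 ± 0.09). The others did not share its direction: Egfl7 (-1.17 ± 0.24) and Tek (-0.95 ± 0.3) were called lower, against 18.9% of all genes tested. Without vehicle replicate 3 there were 5 of 6 lower, against 23.7% of the genes then tested. Smooth muscle and pericyte markers, 6 of 7 tested, summed to 63.6 to 136 FPKM in vehicle and 106 to 121 FPKM after ATRA. Cnn1, a smooth muscle calponin (means of 49.7 and 93.5 FPKM), made up most of the sum after ATRA. In vehicle replicates 1 to 3 it had 34.6, 83.8 and 30.7 FPKM of sums of 94.1, 136 and 63.6 FPKM. Of the 6 tested, 2 were called higher and 4 lower by limma, against 20.3% and 18.9% of all genes tested. The lower ones were the pericyte markers Pdgfrb (-1.34 ± 0.3), Cspg4 (-1.44 ± 0.11) and Notch3 (-0.83 ± 0.21) and the smooth muscle marker Smtn (-0.52 ± 0.11), the same direction as Vim and Nes. Their part in the results was not tested.

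**Figure D3:**
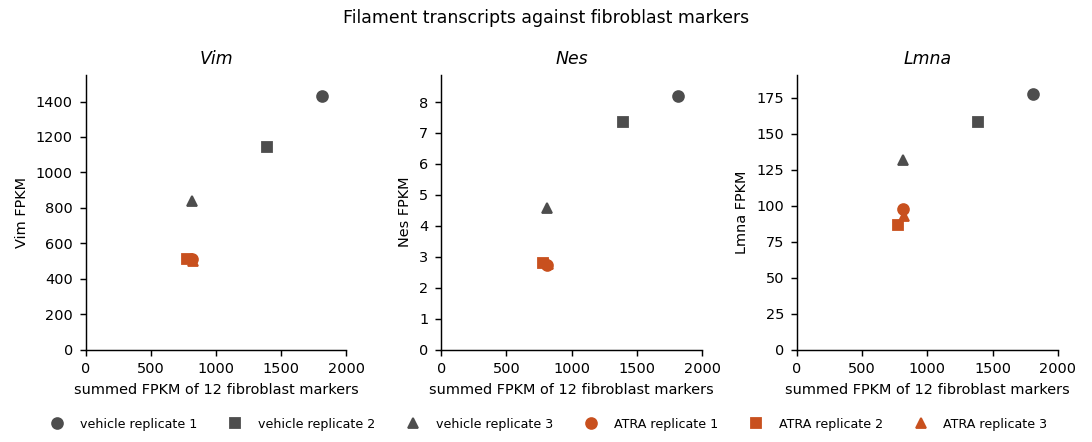
FPKM of Vim, Nes and Lmna (vertical axes from 0) against the summed FPKM of 12 fibroblast markers in each library, vehicle in grey and ATRA in orange. Vehicle replicate 3 (grey triangle) has a fibroblast sum of 812.6 FPKM, within the ATRA range of 776.7 to 821.1 FPKM, and lies above all ATRA libraries for each of the 3 genes.

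In the make-up of the cytoplasmic filament transcripts, the share of Vim was lower and those of Des and Krt18 higher after ATRA, although Des itself was not called. Per length, Vim took 76.3%, 66.5% and 63% of the summed FPKM of the 7 cytoplasmic genes in vehicle and 40.3%, 41.8% and 40.7% after ATRA. Des took 17.3%, 27.1% and 30.8% in vehicle and 36.6%, 34.5% and 35.5% after ATRA, and Krt18 took 3.78%, 3.76% and 3.59% in vehicle and 20.2%, 20.6% and 20.7% after ATRA. The share of the 3 keratins together was 5.54 ± 0.15% in vehicle and 22.9 ± 0.372% after ATRA, while the sum of all 7 genes was 1642 ± 284 FPKM in vehicle and 1240 ± 23.4 FPKM after ATRA (SD, n = 3). Des over Vim was 0.227, 0.408 and 0.489 in vehicle and 0.908, 0.826 and 0.873 after ATRA, and the groups did not overlap. Without length scaling the Des over Vim ratio was 0.699 in vehicle and 1.62 after ATRA.

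**Figure D4:**
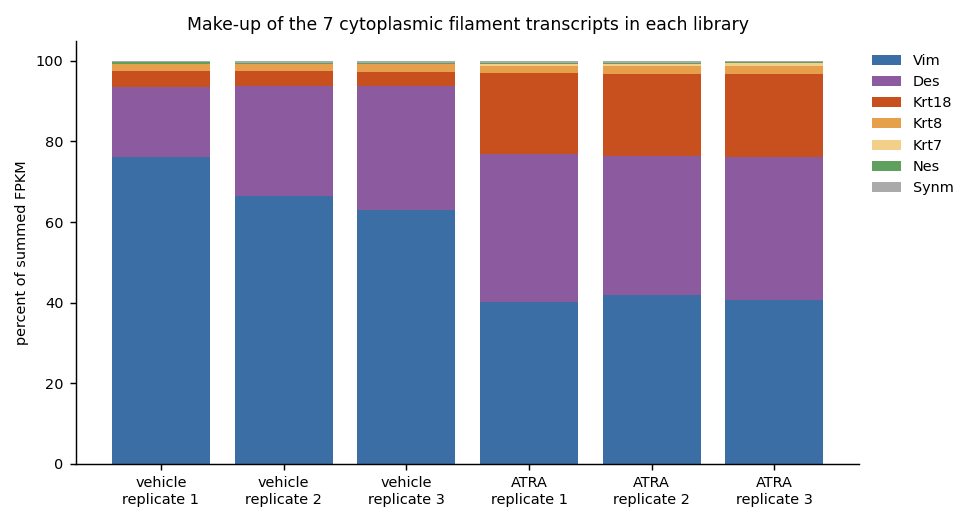
Percent of the summed FPKM of the 7 cytoplasmic filament genes taken by each gene (stacked bars, vertical axis from 0 to 100) in each of the 6 libraries. The Krt18 part is 3.59% to 3.78% in vehicle and 20.2% to 20.7% after ATRA, and the Vim part falls from 63% or more to 41.8% or less.

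In the order of levels per length, Vim was highest in both groups and Des next. In vehicle Lmna, Krt18, Krt8, Lmnb1, Nes, Synm and Krt7 followed. Of the neighbours in that order, Nes (4.56 to 8.19 FPKM) and Synm (5.08 to 7.53 FPKM) overlapped in their ranges, and the others did not. After ATRA Krt18 (251 to 256 FPKM) stood above Lmna (86.5 to 97.3 FPKM), and Krt7 (6.15 to 6.75 FPKM) stood above Synm (4.86 to 5.5 FPKM) and Nes (2.74 to 2.79 FPKM), with no overlap between neighbours.

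Of the lamins, A-type and B-type differed. Lmna (ENSRNOG00000019638), which encodes lamins A and C, the lamins that scale with the stiffness of a tissue, had 19845, 17651 and 14713 normalised counts in vehicle and 10885, 9677 and 10389 after ATRA. The lowest vehicle library was 35.2% above the highest ATRA library, and the means differed 1.69-fold (-0.75 ± 0.11). Lmnb1 (ENSRNOG00000013774), the gene of lamin B1, had 1243, 1399 and 1424 normalised counts in vehicle and 1360, 1252 and 1324 after ATRA, overlapped fully and was not called (-0.05 ± 0.07). The FPKM ratio of Lmna to Lmnb1 was 11.8, 9.32 and 7.64 in vehicle and 5.92, 5.71 and 5.8 after ATRA, without overlap. In vehicle this ratio varied as the fibroblast sum did, highest in replicate 1 and lowest in replicate 3, and Lmna over the fibroblast sum was 0.0979, 0.113 and 0.162 in vehicle and 0.12, 0.111 and 0.113 after ATRA, where the groups overlapped. Vehicle replicate 3, whose fibroblast sum but not every single marker lay within the ATRA range, had 132 FPKM of Lmna against 86.5 to 97.3 FPKM after ATRA.

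Most further keratins had few or no reads. Of 49 further keratin symbols 43 were matched, 22 had no read in any library and 3 passed the filter. Of these 3, 1 was called higher and 2 were not called, against 20.3% of all genes tested called higher. Krt80 (ENSRNOG00000025994), a type II keratin of differentiating epithelia, had 166, 250 and 199 normalised counts in vehicle and 550, 484 and 502 after ATRA, a 2.5-fold rise (1.34 ± 0.15, limma adjusted p = 0.00042). Krt10 (-0.38 ± 0.14, adjusted p = 0.066) and Krt15 (0.79 ± 0.43, adjusted p = 0.18), type I keratins of stratified epithelia, were not called by limma, and without vehicle replicate 1 a second keratin was called higher. No list was tested as a set.

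Of 7 other filament genes tested outside the keratins, 3 were called higher, 1 lower and 3 not, against 20.3% and 18.9% of all genes tested. Nefh, the heavy neurofilament chain, rose from 20.3, 27.8 and 29.4 to 58.8, 78.9 and 124 normalised counts (1.67 ± 0.29, limma adjusted p = 0.0035). Iffo1, a nucleoplasmic filament family member, rose 1.38-fold (0.48 ± 0.13, adjusted p = 0.019 by limma). Gfap, the astrocyte filament, had 8, 12 and 4 reads in vehicle and 29, 12 and 21 after ATRA, and Prph, the peripheral neuron filament, 11, 20 and 17 in vehicle and 5, 5 and 1 after ATRA. Each passed the filter on low values only through the group in which it was higher, so no test is given for them, although 1 of the 3 higher calls and the 1 lower call are theirs. Lmnb2, the gene of lamin B2, was not called (0.01 ± 0.08, limma adjusted p = 0.94). Leaving out ATRA replicate 1 or 3 left 1 of these genes higher, and leaving out vehicle replicate 1, 2 or 3 left 0 lower, since Prph then failed the filter. Iffo1 was not called without vehicle replicate 2 or ATRA replicate 1, 2 or 3 (limma adjusted p = 0.07, 0.069, 0.068 and 0.056).

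Of 14 linker genes tested, 5 rose, 4 fell and 5 passed neither way, around a median log2 fold change of 0.03, where 20.3% of all genes tested were called higher, 18.9% lower and the median was 0.004. Plec, which encodes plectin, the crosslinker that binds desmin, vimentin and keratins alike, had 13952, 13051 and 14420 normalised counts in vehicle and 9111, 9508 and 9005 after ATRA (-0.58 ± 0.06, limma adjusted p = 0.00022). Dsp, the gene of desmoplakin, which ties filaments to desmosomes, rose from 17755, 19231 and 20811 to 28199, 29142 and 29197 normalised counts (0.59 ± 0.07, limma adjusted p = 0.00057). So the general crosslinker was lower and the desmosomal anchor higher, each by about 1.5-fold, without overlap between groups.

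Nebl, the gene of nebulette, a Z-disc protein that binds desmin, rose 2.55-fold (1.36 ± 0.09, limma adjusted p = 4.5e-05), Pkp2, the plakophilin of heart desmosomes, 1.29-fold (0.37 ± 0.08, adjusted p = 0.0095) and Eppk1, the gene of epiplakin, a keratin-binding plakin, 1.78-fold (0.85 ± 0.22, adjusted p = 0.017). Pkp1, a plakophilin of stratified epithelia, fell 16.9-fold (-3.97 ± 0.27, limma adjusted p = 3.7e-05), from 1865, 1159 and 797 to 80.3, 75.8 and 70.5 normalised counts. Fam83h, whose protein recruits a casein kinase to keratin filaments, fell 2.58-fold (-1.34 ± 0.16, adjusted p = 0.00061 by limma). Leaving out ATRA replicate 2 or 3 left 3 linker genes higher, and Eppk1 was then not called (limma adjusted p = 0.068 and 0.069).

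Of 11 tested genes that fold or remove filament proteins, 3 were higher, 4 lower and 4 not called (median -0.17), against 20.3% and 18.9% of all genes. Cryab, the small heat shock protein that chaperones desmin, had 53815, 53970 and 60503 normalised counts in vehicle and 27956, 27898 and 27452 after ATRA, a 2.02-fold fall (-1.01 ± 0.07, limma adjusted p = 4e-05). Bag3, a co-chaperone of the Z-disc (-0.24 ± 0.04, adjusted p = 0.0044), and Capn1, a calpain protease (-0.44 ± 0.07, adjusted p = 0.0027), fell as well by limma. Capn2, another calpain, and Trim63, a muscle ubiquitin ligase, rose 1.49-fold and 1.48-fold, both 0.58 on the log2 scale (limma adjusted p = 0.00072 and 0.0054).

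At the nuclear envelope, 4 of 17 tested lamina partners and lamin-processing genes were higher, 6 lower and 7 not called (median 0.02), against 20.3% higher and 18.9% lower over all genes tested. Syne3, a nesprin that joins the nucleus to the cytoskeleton, fell from 367, 247 and 239 to 91.1, 101 and 107 normalised counts (-1.47 ± 0.18, limma adjusted p = 0.00061). Sun2, which anchors nesprins and binds lamin A, fell 1.61-fold (-0.68 ± 0.08, limma adjusted p = 0.00064), and Nrm, an inner membrane protein gene, 1.54-fold (-0.62 ± 0.08, adjusted p = 0.001). Syne1, the giant nesprin of muscle (0.24 ± 0.05, adjusted p = 0.0052), and Banf1, a chromatin bridge of the envelope (0.23 ± 0.05, adjusted p = 0.0055), rose slightly by limma. The lamin-processing genes Zmpste24, Icmt, Rce1 and Fnta were not called, with log2 fold changes of 0.06 ± 0.06, 0.02 ± 0.07, -0.18 ± 0.24 and 0.1 ± 0.06. Leaving out vehicle replicate 2 or ATRA replicate 2 or 3 left 3 of the partners lower, and leaving out vehicle replicate 2 or ATRA replicate 1, 2 or 3 left 2 higher.

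**Figure D5:**
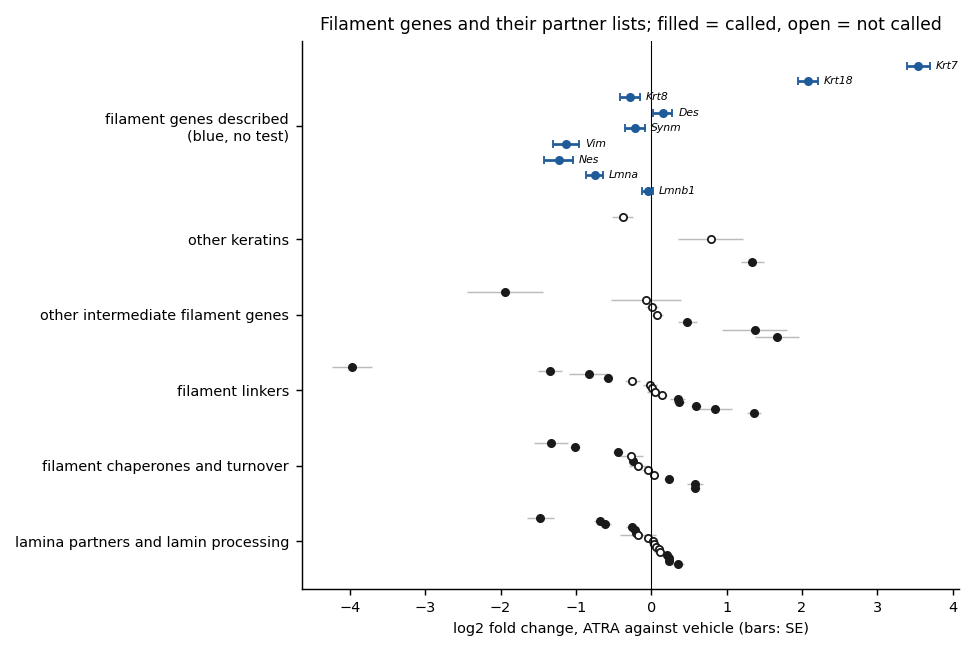
Log2 fold changes, ATRA against vehicle, with SE bars, of the 9 filament genes (blue, labelled, no test) and of the tested members of 5 lists of related genes (black, filled where called by limma at an adjusted p under 0.05, open where not). Krt7 and Krt18 lie at 3.54 and 2.08, and each partner list has members on both sides of 0.

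The genes whose profiles over the 6 libraries were most like those of the keratins were sought among 13101 other genes, by the root mean square distance of log2 values relative to the vehicle mean. For Krt8 they were B2m, Soat1 and Ggcx, at distances of 0.028, 0.029 and 0.032. For Krt18 they were Cmtm8, AABR07032097.1 and Abcg1, at 0.129, 0.134 and 0.142, and for Krt7 Col11a1, Tmem176b and Nrep, at 0.161, 0.204 and 0.217. The distances of Krt18 and Krt7 to their nearest profiles were thus larger than that of Krt8, but nothing is read from this order. The distance is not scaled to the size of a change. Krt8 (-0.28) lay near the median absolute log2 fold change of all genes tested, 0.234, and Krt18 and Krt7 far above it.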

How the data were processed

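Poly(A)-selected RNA was made into libraries with NEBNext reagents, per the labels' protocols. Tools listed in the submitters' processing notes are DESeq2 1.32.0, HTSeq 0.11.2, STAR 2.7.3a and Trim Galore 0.6.4, with mRatBN7.2 as build. Annotation, strand setting and treatment of multi-mapping reads are not stated, so values of keratins with near-identical copies and of overlapping genes are uncertain. Per the file headers, the deposited table holds FPKM values and, for each library, a signal of normalised counts, and the authors' own comparison as a log2 fold change with its error, a test score and p-values, which were not used. Normalised counts were whole multiples of a step per library (100% of values, relative tolerance 1e-06), which gave back reads; a gene with 3 reads corresponds to 0.0936 to 0.118 CPM, and this floor covers counting error only. FPKM, proportional to these counts within each gene, was used for levels between genes.

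The test was limma 3.58.1 with trended variance on log2(normalised count + 1), on genes with at least 10 in at least 3 libraries, with Benjamini-Hochberg adjustment over the 13110 genes tested. Fold changes on this scale understate changes of low genes; folds in the text are of mean normalised counts. Of the table's genes, 3108 had no symbol, and 205 rows shared a symbol with a gene of higher mean. The test was checked on simulated counts with the same spread per gene in both groups. That check did not cover the larger spread of the vehicle libraries. As alternatives, edgeR 4.0.16 and DESeq2 1.42.0 were run on the recovered reads. Libraries of a group differed by more than sampling noise (chi-square over its degrees of freedom, 2.53 to 46.2). The genes and lists were chosen with earlier results of these data known. Named list genes were all called genes with an absolute log2 fold change of at least 1, plus the 4 others of smallest p per list, and the 4 most abundant of each marker list; for keratin profiles, the 3 nearest genes. Krt10, Krt15, Lmnb2, Zmpste24, Icmt, Rce1, Fnta, Epcam, Cdh1, Grhl2, Cldn7, Thy1 and Notch3 were named after their values were seen. One gene that the rule names is not reported here. Promoter sequences are from RefSeq (GRCr8).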

Additional observations from a re-analysis of the deposited data

How the results depend on the processing

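Directions of the 9 filament genes were the same under every alternative run: pseudocounts of 0.5 and 8, no or a stricter filter, total reads alone, edgeR, DESeq2, the replicate block and leaving out each library. Calls changed for Krt8 and Synm only, as given above. Of all genes, 2667 were called higher and 2483 lower; with libraries scaled by total reads alone these were 1764 and 3775, the median of all genes then lying at -0.104 and not at 0.004. Leaving out a library gave 1665 to 3398 higher and 1636 to 3061 lower, the counts being lowest without any of the ATRA libraries (1702, 1698 and 1665 higher, and 1636, 1645 and 1641 lower, without ATRA replicate 1, 2 and 3). With no filter, 4 other keratins were higher and 1 lower, and 2 other filament genes were lower; the stricter filter left 0 of the latter. With total reads alone 1 other keratin was lower and 1 lamina partner higher. Leaving out a library gave 1 to 2 other keratins higher, 1 to 3 other filament genes higher and 0 to 1 lower, 3 to 6 linkers higher, and 2 to 4 lamina partners higher and 3 to 6 lower. The cause of these shifts was not tested. In normalised counts without length, Krt18 over Krt8 was 1.29 in vehicle and 6.63 after ATRA, Krt7 plus Krt8 over Krt18 0.785 and 0.182, Des over Vim 0.699 and 1.62, Lmna over Lmnb1 13 and 7.86, and the keratin share 4.21% and 14.8%.

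The labels state no pairing of replicates. Same-numbered libraries deviated with correlations of 0, -0.103 and -0.013, and no library correlated best with its own number. With 3 libraries per group these values cannot decide whether the numbers were pairs. With the replicate number as a block, 2302 genes were higher and 2135 lower, 3 lamina partners were lower, and 2 other filament genes were higher. Among named list genes, Banf1 lost its call with total reads alone (limma adjusted p = 0.053). The losses of Iffo1 and Eppk1 are given above. Gfap and Prph are left out here, since no test is given for them. Few reads limit Gfap, Prph and most keratins.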

Other observations

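Below the filter, 18 keratins had at least 1 read. Krt17, a type I keratin of stressed epithelia, had 8, 7 and 4 reads in vehicle replicates 1 to 3 and 1, 1 and 0 after ATRA. Krt79, a type II keratin of hair follicle ducts, had 5, 1 and 0 reads in vehicle and 14, 14 and 4 after ATRA. Krt23, a type I keratin, had 14, 7 and 4 reads in vehicle and 4, 6 and 3 after ATRA, where the groups overlapped. These 3 were chosen after their values were seen, as the most abundant of the keratins below the filter, and are given without a test.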
